A study of Mus musculus with 42 samples.

Results

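The 10 genes described here mark the endothelial cells that line the liver sinusoids, the capillaries through which portal and arterial blood passes the hepatocytes. They were chosen by name (Stab1, Stab2, Clec4g, Lyve1, Fcgr2b, Kdr, Pecam1, Cdh5, Oit3 and Eng), with no threshold on a measured value but with earlier results of these data known. All 10 were listed in each of the 6 deposited tables, among 19758 gene names in the series, and all 10 reached the minimum mean normalized count of 5 that a gene needed to be tested. Livers came from 42 male C57BL/6J mice, 7 in each of 6 groups. The WT lean group were wild type mice on a diet with 10% of its energy from fat and the WT obese group were wild type mice on a diet with 60% of its energy from fat. The KO lean and KO obese groups ate the same diets and lacked ChemR23 (gene symbol Cmklr1), the receptor for the lipid mediator resolvin E1 (RvE1). Those 4 groups were injected with the vehicle of ethanol and PBS. The WT obese+RvE1 and KO obese+RvE1 groups were on the 60% diet and received 300 ng of RvE1 intraperitoneally. Diets ran from 6 weeks of age for 15 weeks, injections were given on 4 days to every group, and livers were taken on day 5 after at least 4 h of fasting. The knockout was made with CRISPR/Cas9 on the same background, and wild type mice were littermate controls. Whole liver was sequenced, so fewer endothelial cells and less RNA per endothelial cell cannot be told apart in any value below.

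Sinusoidal endothelial cells differ from the endothelium of other vessels in having open pores and no complete basement membrane, and they are the main scavenger cells of the blood. They take up waste molecules and small immune complexes through scavenger and Fc receptors, and they stay differentiated under VEGF and BMP signals from neighbouring cells. Stab1 and Stab2 encode the stabilins, scavenger receptors of which stabilin-2 clears hyaluronan. Clec4g encodes the C-type lectin LSECtin, Lyve1 a hyaluronan receptor shared with lymphatic vessels, and Fcgr2b the inhibitory Fc gamma receptor that these cells use to take up immune complexes. Kdr is the main VEGF receptor of endothelium and Eng (endoglin) a co-receptor for BMP9. Pecam1 and Cdh5 encode junction proteins of all endothelium, and Oit3 encodes a secreted protein that serves as a marker of sinusoidal cells in liver.

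Reads on listed genes ranged from 15960120 to 43755273 per library, with a median of 24253532. The check of the genotype held in every lean mouse. Cmklr1 had 40.8 to 114 normalized counts in the 7 WT lean mice and 9.72 to 22.6 in the 7 KO lean mice, with a log2 fold change (Log2FC, written throughout as the first group over the second) of -2.23 (SE 0.24, n = 7 per group). The KO livers thus still gave some reads on this gene. The mice of a group share the number that opens their identifiers in sets of up to 4. The labels do not say what that number stands for, and it is called the identifier number below. Number 23 is in KO obese and KO obese+RvE1, and every other number is in a single group. A difference between diets or genotypes is therefore also a difference between sets of identifier numbers. Values of several members moved with the identifier number within a group. Stab2 lay at 513 to 561 normalized counts in the 3 KO lean mice of number 20 and at 799 to 984 in the other 4, and Stab1 lay at 476 to 509 and at 618 to 736 in the same mice. Stab2 lay at 322 to 333 in the 2 WT lean mice of number 26, below the other 5. In WT obese liver Kdr lay at 263 to 323 in the 3 mice of number 27 and at 383 to 650.2 in the 3 mice of number 6.

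All 10 genes had reads in every library. In WT lean liver, Clec4g was highest with 314 ± 66.7 (SD, n = 7) normalized counts per kilobase, followed by Eng with 296. Oit3 followed with 144, Lyve1 with 126, Cdh5 with 105 and Fcgr2b with 103. Stab2 (61.7), Kdr (61.9), Stab1 (50.5) and Pecam1 (40.0) were the lowest per kilobase. Of the junction genes of all endothelium, Cdh5 was thus close to Fcgr2b and above both stabilin genes, and Pecam1 was the lowest of the 10. The length used was that of all GENCODE exons of a gene merged, and the order depends on this choice. Within groups the 10 genes varied to different degrees between mice. The pooled within-group SD was smallest for Eng, 0.20 on the log2 scale or a factor of 1.15, and largest for Lyve1, 0.59 or a factor of 1.51. The other 8 genes lay between 0.34 and 0.43.

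The 10 genes are spread over the genome, and only Clec4g and Cdh5 (chromosome 8) and Stab2 and Oit3 (chromosome 10) share a chromosome. Clec4g lies at chr8:3707064-3720651, Fcgr2b at chr1:170958617-170976547, Kdr at chr5:75932827-75978458, Oit3 at chr10:59422958-59441778 (all on the minus strand) and Eng at chr2:32646595-32682669 on the plus strand (mm10, GENCODE M21 genes). Eng overlaps Fpgs on the opposite strand and Mir1954 on its own strand, and Stab1 overlaps Nt5dc2 on the opposite strand. The strand setting of the counting is not given in the sources used here, so reads in such overlaps cannot be assigned with certainty. Fcgr2b also resembles Fcgr3 in sequence, and macrophages and B cells express it besides endothelium.

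The 250 bases before the start of the RefSeq entry (GRCm38.p6, the assembly that mm10 names) are shown for 4 genes. These are the genes with an entry that were called lower in KO obese than in KO lean liver by the main test below. Joint regulation of these genes was not tested. RefSeq starts were matched for 6 of the 10 members. Capitals mark matches on either strand to any of 6 motifs. AGGAAG is a motif of ETS factors, which are active in endothelium, and so is CGGAAG. Factors of the GATA family bind the motif AGATAA and also the motif TGATAA. The GC box was searched as GGGCGG and the TATA box as TATAAA. The windows are chr8:3720652-3720901 for Clec4g, chr1:170976072-170976321 for Fcgr2b and chr5:75978456-75978705 for Kdr, all read from the minus strand, and chr2:32646345-32646594 for Eng, read from the plus strand.
Clec4g: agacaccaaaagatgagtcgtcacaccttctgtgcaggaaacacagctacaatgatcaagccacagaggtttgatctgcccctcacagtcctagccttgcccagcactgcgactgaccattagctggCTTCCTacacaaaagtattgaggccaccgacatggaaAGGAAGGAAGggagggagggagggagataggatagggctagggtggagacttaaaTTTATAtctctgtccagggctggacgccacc
Fcgr2b: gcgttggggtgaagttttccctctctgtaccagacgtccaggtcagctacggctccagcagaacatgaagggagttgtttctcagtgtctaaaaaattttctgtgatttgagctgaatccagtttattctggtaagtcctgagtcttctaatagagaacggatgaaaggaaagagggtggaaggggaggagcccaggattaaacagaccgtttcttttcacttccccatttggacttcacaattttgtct
Kdr: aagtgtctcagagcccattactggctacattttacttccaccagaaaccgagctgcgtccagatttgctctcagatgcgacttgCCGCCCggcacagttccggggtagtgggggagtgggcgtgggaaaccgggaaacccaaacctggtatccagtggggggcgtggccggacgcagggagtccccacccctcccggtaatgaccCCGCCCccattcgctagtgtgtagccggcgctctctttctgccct
Eng: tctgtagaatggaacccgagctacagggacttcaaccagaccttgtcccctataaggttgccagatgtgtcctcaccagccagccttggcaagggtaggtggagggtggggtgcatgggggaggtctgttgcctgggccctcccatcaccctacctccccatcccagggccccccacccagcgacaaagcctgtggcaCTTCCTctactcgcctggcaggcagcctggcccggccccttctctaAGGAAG
AGGAAG was present in 4 of the 6 matched members (Eng, Clec4g, Stab2 and Stab1) and in 29.5% of 32851 promoters of the same length. The other ETS motif, CGGAAG, was in Stab1 alone among the 6, against 13.6% of all promoters. The GC box was in Kdr, against 32.7%, and TATAAA in Clec4g, against 12.4%. Neither searched GATA motif was found in the 6 windows, against 9.99% (AGATAA) and 7.94% (TGATAA) of all. Other forms of the GATA motif, such as AGATAG, were not searched. The 4 windows shown share no motif of this set, since Fcgr2b held none of them. The Fcgr2b window lies inside its GENCODE gene, which starts at position 170976547 on the minus strand. The bases before that GENCODE start were not searched. These matches describe letters in a window and no binding was measured.

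The diet comparison in KO mice asked which genes differed between obese and lean liver without the receptor, and it was the comparison in which most members passed the test. By limma, 5 of the 10 genes (Clec4g, Fcgr2b, Kdr, Oit3 and Eng) were lower in KO obese liver and 0 were higher, where a call needs an adjusted p under 0.1 after Benjamini-Hochberg correction over all genes tested. With a random block for the identifier number 0 of the 10 passed (adjusted p from 0.104 for Fcgr2b to 0.193 for Eng among the 5, limma). Of all 14213 genes tested, 12.1% were called lower, 12.0% higher and 24.1% in either direction. The median Log2FC of the 10 was -0.28, beside -0.002 over all genes.

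Clec4g, the lectin gene, had the largest difference. Its normalized counts were 755 at the lowest, 1155 at the median and 1670.0 at the highest in the 7 KO lean mice, and 411, 594 and 1108 in the 7 KO obese mice. The groups overlapped, with 4 KO obese mice below every KO lean mouse and 4 KO lean mice above every KO obese mouse. The fall was 39.7% (Log2FC = -0.73, SE 0.23, limma adjusted p = 0.042). The KO obese mice fell into a low set at 411 to 594, which held the 3 mice with identifier number 10 and mouse 31R, and a high set (31L, 23L and 31N) at 916 to 1108.

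Fcgr2b, the Fc receptor gene, ranged from 590.3 through a median of 1137 to 1401 in KO lean mice and from 469 through 667 to 884 in KO obese mice. Every KO lean mouse but 20R lay above the highest KO obese mouse. Its Log2FC was -0.66 (SE 0.17, limma adjusted p = 0.024), a fall of 36.5%. Mouse 20R was the lowest KO lean mouse for Clec4g too.

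Oit3 and Eng overlapped between the groups through single mice. For Oit3 the KO lean mice lay at 498, 581 and 674 (lowest, median, highest) and the KO obese mice at 281, 427 and 646. For Eng they lay at 1310.3, 1538 and 1681 in KO lean and at 979, 1159 and 1568 in KO obese. In both genes 6 of the 7 KO obese mice were below every KO lean mouse, and the exception was the same animal, 23L. Oit3 fell by 0.45 on the log2 scale (SE 0.15, limma adjusted p = 0.050) and Eng fell by 0.32 (SE 0.10, limma adjusted p = 0.050). Mouse 23L also had the highest Clec4g, Lyve1, Cdh5 and Pecam1 values of the KO obese group.

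Kdr, the VEGF receptor gene, stood at 511, 596 and 799 normalized counts in KO lean mice and at 275, 513 and 563 in KO obese mice, with 3 KO obese mice below all KO lean mice. Its Log2FC was -0.44 (SE 0.16, limma adjusted p = 0.077). The lowest value belonged to mouse 10RL, which was also the lowest KO obese mouse for Clec4g, Lyve1, Fcgr2b, Pecam1, Cdh5, Oit3 and Eng.

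The remaining 5 genes did not pass. The stabilin genes gave a Log2FC of -0.24 for Stab1 (adjusted p = 0.219, limma) and of -0.16 for Stab2 (adjusted p = 0.563, limma). The junction genes gave -0.18 for Cdh5 and 0.05 for Pecam1. Lyve1 was the member with the largest positive value, 0.33 (95% interval -0.05 to 0.70, adjusted p = 0.212, limma), with KO lean mice at 274, 367 and 515 and KO obese mice at 356, 485 and 764. Without the 3 KO lean mice of number 20, Stab1 (Log2FC = -0.45, limma adjusted p = 0.017) and Stab2 (Log2FC = -0.49, limma adjusted p = 0.016) were called lower. Eng was no longer called in that fit (adjusted p = 0.140, limma). Those 3 mice had the lowest stabilin counts of the KO lean group. Leaving them out widens the stabilin differences by construction, so these 2 calls are no evidence of lower stabilin counts in KO obese liver. Any difference between the called and the uncalled members was not tested.

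**Figure D1:**
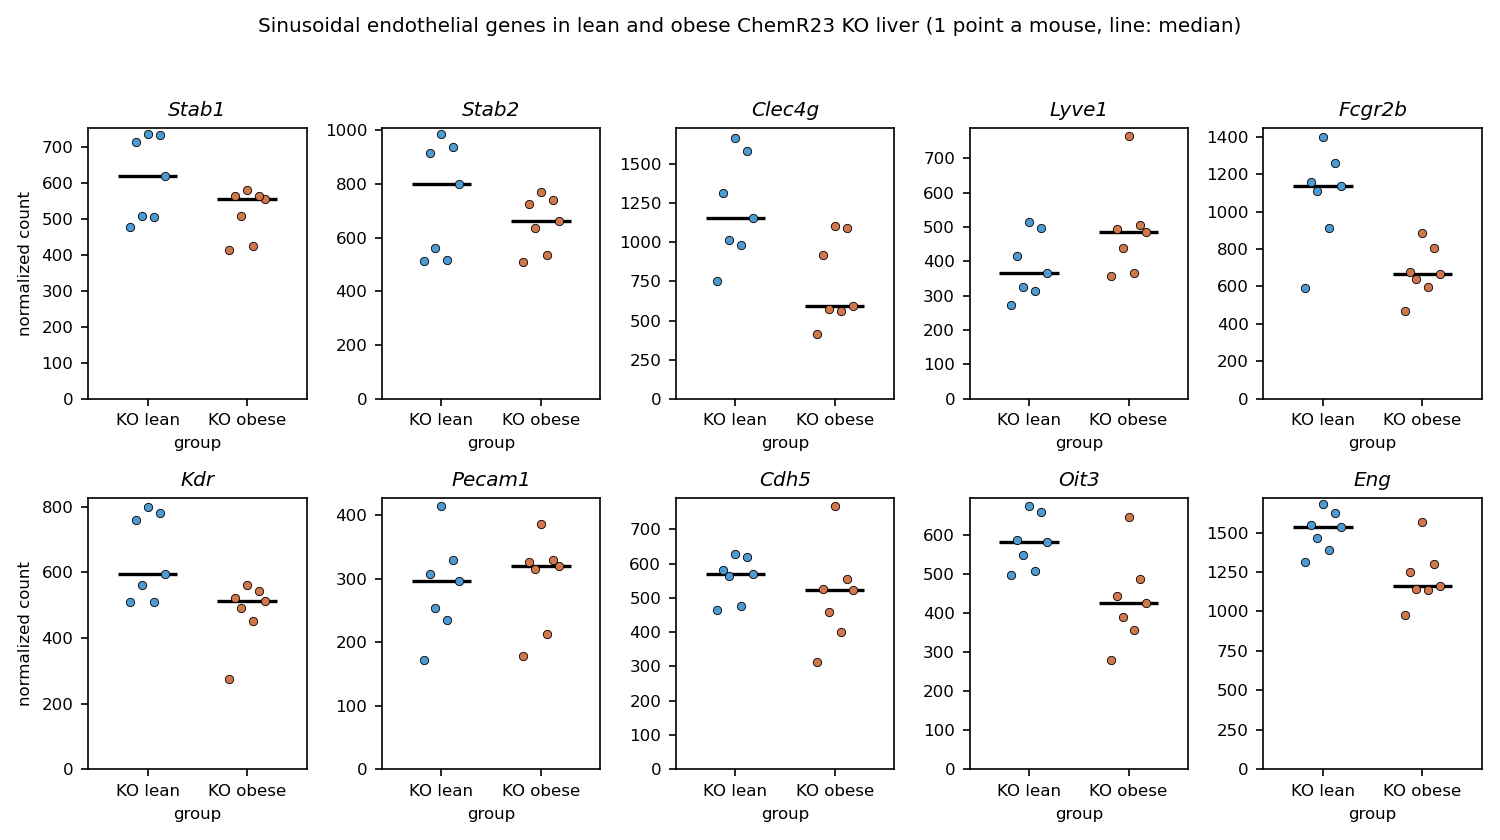
Normalized counts (y axis, linear from 0) of the 10 genes in 7 KO lean and 7 KO obese livers (x axis), with 1 point per mouse and a line at the group median. The groups overlap in every panel, and in the Oit3 and Eng panels 6 of the 7 KO obese mice lie below all KO lean mice.

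These calls did not hold in all fits. Besides the loss of all 5 with the block, 0 members passed without the 3 mice of number 10 or without the 2 mice of number 9. Leaving out single mice gave 2 to 5 members, and Clec4g and Fcgr2b passed in each case. Kdr, Oit3 and Eng were lost without KO lean mouse 9L, Kdr and Eng without KO obese mouse 10RL or 31R, and Kdr also without 14-2L, 14RL or 31L. With libraries scaled to equal read totals the median of all genes moved to 0.14 and Kdr, Oit3 and Eng no longer passed, while relative to that median their values were -0.43, -0.45 and -0.31. In that fit Lyve1 was called higher (Log2FC = 0.47, limma adjusted p = 0.078), beside Clec4g and Fcgr2b as lower. With length and GC correction Eng was no longer called (Log2FC = -0.25), while Stab1 was called lower (-0.41). Library quality weights also gave a call of Stab1 as lower (-0.38).

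Markers of other cells moved in the same comparison. Of the 10 Kupffer cell markers tested, 8 were lower in KO obese liver and 0 were higher (median Log2FC -0.89), and 7 remained lower with the block. Their summed normalized counts were 11573 to 23976 in KO lean and 6563 to 9088 in KO obese mice, without overlap. The largest falls relative to their error were those of Vsig4, a complement receptor (Log2FC = -0.73), C1qa, a subunit of complement C1q (-0.89), Cd5l, a secreted macrophage protein (-1.002), and Timd4, a receptor for dying cells (-0.90). None of the 10 was at 0 in these libraries, and Adgre1 was not analysed here. Of the 7 lymphocyte markers tested, 5 were lower (among them Ms4a1, a B cell surface gene, with Log2FC = -1.68, and Cd79b, Cd79a and Cd3g), of which Ms4a1 alone passed with the block, with summed counts of 78.3 to 147 in KO lean and 31.8 to 74.6 in KO obese mice. Since Fcgr2b is expressed by both of these cell types, their part in its fall was not tested. Hepatocyte markers summed to 1391460 to 1779630 and 1301060 to 1862440, with 1 of 9 lower (Serpinc1, the antithrombin gene, Log2FC = -0.46). Stellate cell markers had 1 of 9 lower (Des, desmin, -0.59), and their sums of 7582 to 11522 and 8308 to 9962 overlapped.

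Other endothelial genes were examined beside the 10. Of 14 further sinusoidal genes, 6 were lower and 0 higher (median Log2FC -0.39), and with the block 2 were (Mrc1 and Ushbp1). No gene of the other endothelial, signalling, Fc receptor, hepatocyte or stellate cell lists passed with the block in this comparison. The 6 further sinusoidal genes called lower included Mrc1, the mannose receptor, which macrophages express too. Mrc1 had 1316 ± 237 normalized counts in KO lean and 820 ± 181 in KO obese liver (SD, n = 7 each, Log2FC = -0.69, SE 0.15, limma adjusted p = 0.009). Ushbp1 (Log2FC = -0.49), Ehd3, a gene of endocytic membrane traffic (-0.45), and Gpr182, a chemokine scavenger receptor (-0.70), were lower as well. Of 19 pan-endothelial genes 3 were lower and 0 higher, with a median of -0.22. These were Egfl7, a secreted endothelial protein (-0.59), Emcn, endomucin (-0.57), and Tek, the angiopoietin receptor (-0.43). Of 11 genes of larger vessels and other capillaries 1 was lower (Cd34, -0.59), with a median of 0.07.

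In the pathways of the members' ligands few genes passed. Among 11 tested genes of VEGF and angiopoietin signalling, where Kdr belongs, Tek alone was called. Among 12 genes of BMP9 and endoglin signalling, Bmpr2, the type II receptor, was higher (Log2FC = 0.76, limma adjusted p = 0.043), and Bmp6, an iron-regulating ligand made by sinusoidal cells, and Id1, a target of BMP signals, were lower (-0.73 and -0.75). Of the 5 other Fc receptor genes, Fcgrt, the neonatal Fc receptor, was lower (-0.42). With equal read totals 3 of the 12 BMP9 and endoglin genes were called higher (Bmpr2, Smad1 and Smad5) and 0 lower, and of the 19 pan-endothelial genes 1 was called higher (Sox7) and 0 lower.

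The same diet comparison in WT mice gave 0 of 10 members past the threshold in limma, edgeR called 0 and DESeq2 called 1 (Clec4g). Of all 14012 genes tested, 6.27% were called, 2.61% as lower. Every member nevertheless had a Log2FC below 0, as had 49.5% of all genes, with a member median of -0.23 beside 0.003 over all genes. This was not particular to the members, since all 9 hepatocyte markers tested (median -0.24) and all 9 stellate cell markers (median -0.22) were below 0 too. Of the Kupffer cell markers 4 of 10 were below 0, and of the lymphocyte markers 1 of 6. Stab1 and Stab2 were above 0 with library quality weights, and Stab1 with length and GC correction. An unadjusted p-value below 0.05 was reached by 3 members (Clec4g, Kdr and Eng), beside 18.2% of all genes. Clec4g lay at 572, 726 and 1049 normalized counts in WT lean mice and at 459, 556 and 704 in WT obese mice, with 4 WT obese mice below all WT lean mice (Log2FC = -0.41, SE 0.14, limma adjusted p = 0.110). Kdr lay at 407, 619 and 721 in WT lean and at 263, 373 and 650.2 in WT obese mice, with 5 WT obese mice below all WT lean mice (Log2FC = -0.54, SE 0.19, limma adjusted p = 0.148). Without WT lean mouse 8RL Clec4g passed, and without WT obese mouse 6L both Clec4g and Kdr did. Kdr also passed without the mice of number 6, which had the highest Kdr counts of WT obese liver (Log2FC = -0.82, limma adjusted p = 0.039). Without those of number 27, which had the lowest, its Log2FC was -0.25 (adjusted p = 0.591, limma). The Kdr call thus depended on which mice were left out. With all mice Eng had a Log2FC of -0.23 and Fcgr2b of -0.21. The junction genes were at -0.34 for Pecam1 and -0.29 for Cdh5, with adjusted p-values of 0.365 and 0.420 (limma).

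Calls in the other lists of WT mice were few, and with the block 0 genes of the endothelial, signalling, Kupffer cell and stellate cell lists passed. Of the 14 further sinusoidal genes 2 were lower (Dnase1l3, a secreted nuclease, -0.74, and Ehd3, -0.60), and the list's median was -0.34. Targets and ligands of BMP signals were lower: Id2 (-0.94), Id1 (-1.30), Id3 (-0.94) and Bmp6 (-0.71), 4 of 12 genes. Vegfb, a VEGF family ligand, was lower too (-0.75), and Hgf, the hepatocyte growth factor gene of stellate cells, was lower by the same test (-0.66). Of the Kupffer cell markers 0 of 10 were called (median 0.03), and their sums overlapped between the groups. The difference between the genotypes was tested for each gene as a contrast of both diet effects. No member passed (0 of 10, with 1 gene of 13924 called, 0.00718%, by limma and by edgeR), and DESeq2, which called 926 genes, called 0 members. The smallest unadjusted p-value among members was that of Fcgr2b, whose fall was larger in KO mice by 0.44 on the log2 scale (95% interval -0.96 to 0.07, adjusted p = 0.351, limma).

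**Figure D2:**
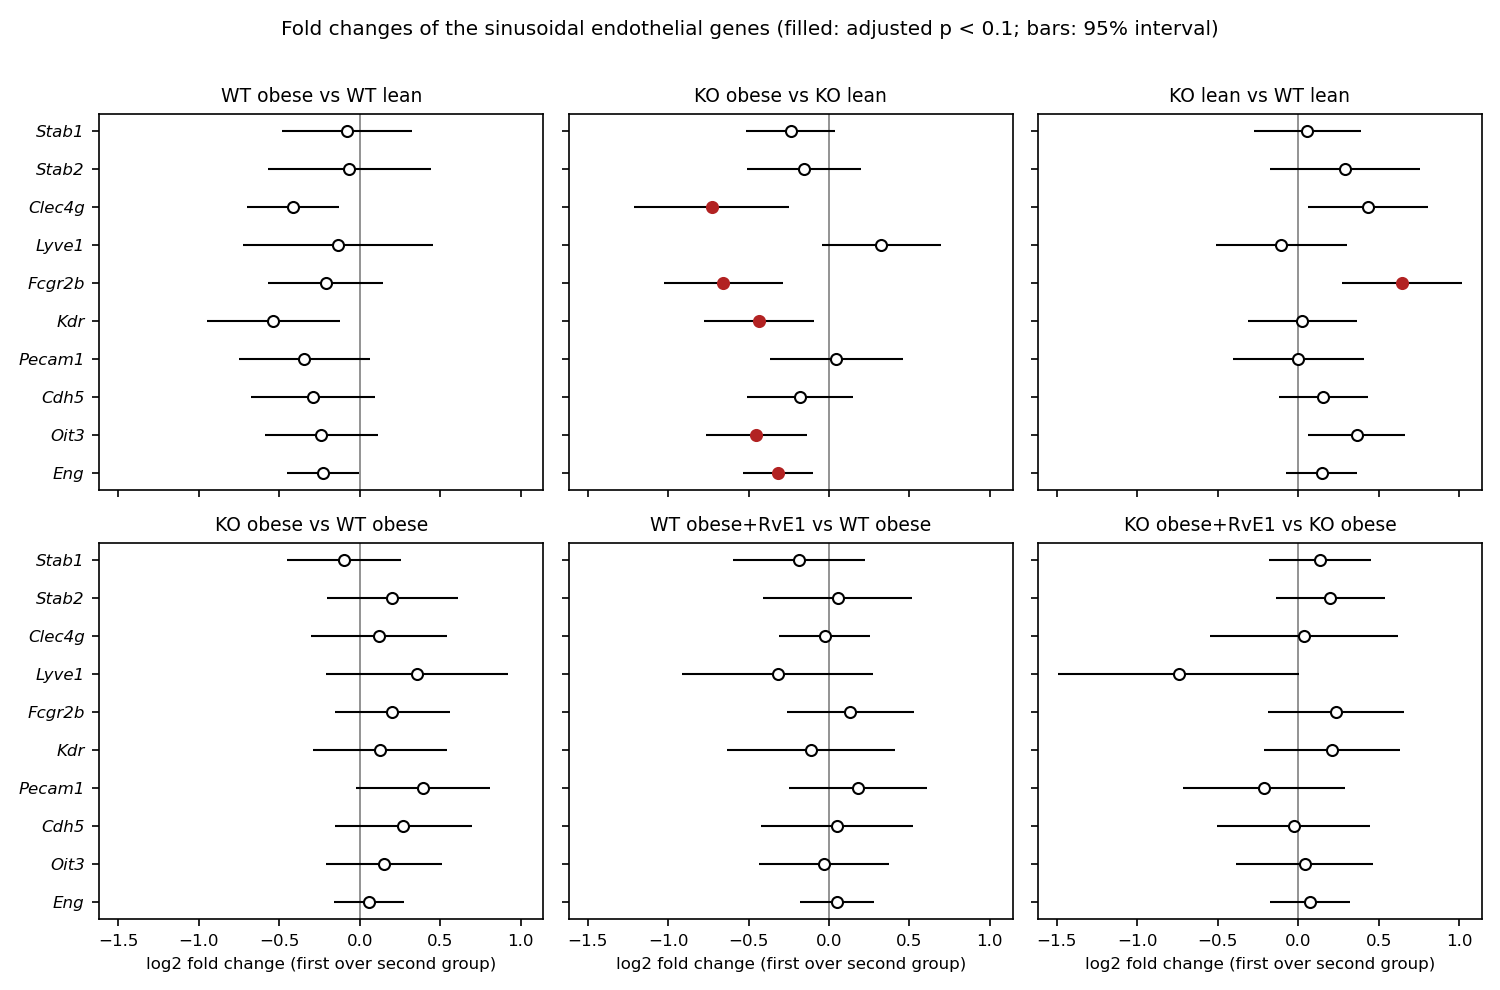
Log2FC of the 10 genes (x axis, first group over second) with 95% intervals from limma, in 1 panel for each of the 6 comparisons, where filled points passed an adjusted p-value of 0.1. The 5 filled points of the KO diet panel lie left of 0, and the single filled point among lean mice, Fcgr2b, lies right of it.

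Lean KO mice were compared with lean WT mice to show how the genotypes differed without obesity. Fcgr2b rose and was the only member called (1 of 10), while 8.0% of 13031 genes were called higher and 16.3% in either direction. Fcgr2b lay at 457, 638 and 783 normalized counts in WT lean mice and at 538, 1032 and 1271 in KO lean mice. Every KO lean mouse but 20R was above the highest WT lean mouse (Log2FC = 0.64, SE 0.18, limma adjusted p = 0.046). Clec4g lay at 595, 749.7 and 1089 in WT lean and at 688, 1048 and 1516 in KO lean mice, with 3 KO lean mice above all WT lean mice (Log2FC = 0.43, limma adjusted p = 0.126). Oit3 was at 0.36 (adjusted p = 0.116, limma). Pecam1, Kdr and Stab1 had Log2FC values of 0.00, 0.02 and 0.06. The median of the 10 was 0.15. The KO lean mice of this comparison are the same animals as those of the diet comparison in KO mice, so a high value in them enters both.

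The Fcgr2b call was lost with a random block for the identifier number (adjusted p = 0.146, limma), with equal read totals (adjusted p = 0.113, limma), and without the mice of number 9, 21 or 26. Leaving out single mice gave 0 to 3 members called. It was lost without WT lean mouse 26R or KO lean mouse 9L (0 members), and Clec4g and Oit3 were called in addition without WT lean mouse 21R or KO lean mouse 20R (3 members).

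Kupffer cell markers again moved with it. With the block, however, 3 of 13031 genes passed among lean mice and none of them was in any list, so that every list call in this paragraph was lost (smallest adjusted p = 0.111 in the Kupffer cell list, limma). Of 10 tested, 9 were higher in KO lean mice without the block and 0 lower, with a median Log2FC of 0.91 and sums of 4664 to 9616 in WT lean and 10501 to 21740.1 in KO lean mice. Of 4 lymphocyte markers tested, 2 B cell genes were also higher (Ms4a1, 1.09, and Cd79b, 0.88). Whether these cells contributed to the Fcgr2b value was not tested. Among sinusoidal genes Mrc1 (0.59), which macrophages express too, and Bmp2 (0.42) were higher. Among pan-endothelial genes Tek (0.49), Egfl7 (0.55) and Emcn (0.63) were higher. Wnt2, a Wnt ligand of endothelium around the central vein, was higher (0.85) and Ltbp4, a matrix protein that binds TGF-beta, was lower (-0.62). Bmpr2 was lower (-0.65) in the BMP list. The stellate cell genes Ngfr (-0.57) and Reln (-0.49) and the cholangiocyte keratin Krt19 (-0.62) were lower.

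**Figure D3:**
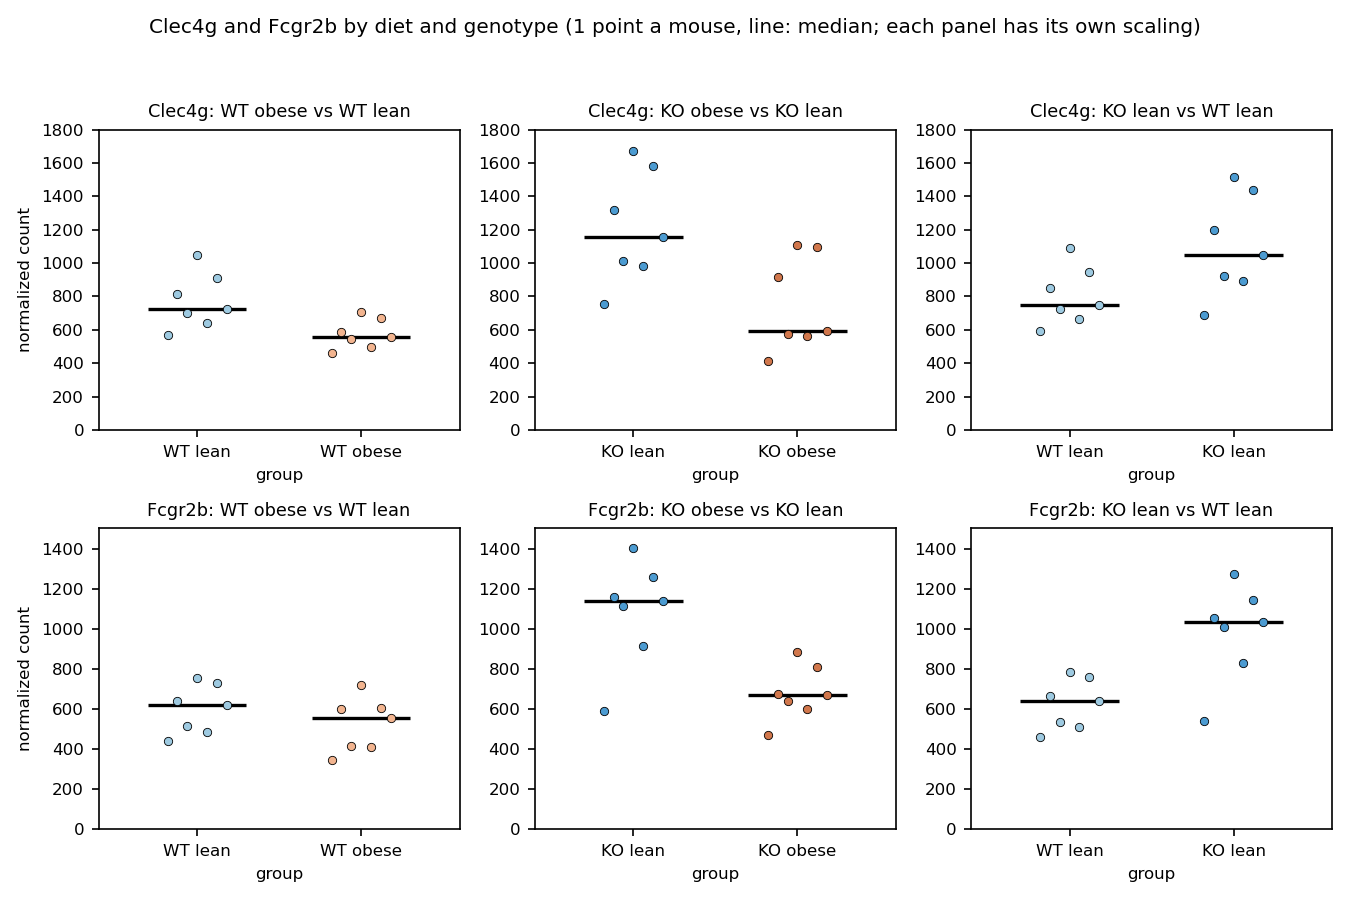
Normalized counts (y axis, linear from 0) of Clec4g and Fcgr2b in the WT diet, KO diet and lean genotype comparisons (x axis, group), with 1 point per mouse and a line at the median of 7 mice. Counts were scaled within each comparison, so levels are read within a panel, and KO lean mice appear in both the middle and the right panels.

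In obese mice the genotypes were compared in the same way. By limma 0 of 10 members passed, beside 0.0141% of all 14162 genes (2 genes, Cmklr1 and Wscd2), and 0 members were called by edgeR or DESeq2. No member reached an unadjusted p-value below 0.05, as 2.25% of all genes did. Pecam1 had the largest Log2FC, 0.39 (95% interval -0.02 to 0.81), with WT obese mice at 151, 198 and 324 normalized counts and KO obese mice at 173, 308 and 371. Lyve1 followed with 0.36, Cdh5 with 0.27 and Fcgr2b with 0.20. Every member but Stab1 (-0.10) had a value above 0, where 50.6% of all genes lay below 0, and Clec4g was below 0 with library quality weights. The 95% interval of every member included 0, and it ran from -0.16 to 0.28 for Eng and from -0.21 to 0.92 for Lyve1. The Kupffer cell marker sums overlapped here (5959 to 9135 in WT obese and 6283 to 8812 in KO obese mice), with 0 of 10 called.

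The RvE1 comparisons asked what 4 injections did in obese liver with and without the receptor. In WT obese mice 0 of 10 members passed, and 0 of all 13085 genes (0.0%) did by limma, with 795 genes (6.08%) at an unadjusted p-value below 0.05. EdgeR called 1 gene and DESeq2 called 25, and none of them was a member. Member Log2FC values ran from -0.32 for Lyve1 to 0.18 for Pecam1, with a median of 0.01. Clec4g lay at 539, 656 and 831 normalized counts with vehicle and at 506, 616 and 919.6 with RvE1, ranges that overlapped almost fully (Log2FC = -0.03, 95% interval -0.31 to 0.26). Fcgr2b had a Log2FC of 0.13 and Kdr of -0.11.

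In KO obese mice 0 of 10 members passed and 0 of 14207 genes (0.0%) did by limma, with 1179 genes (8.3%) at an unadjusted p-value below 0.05, 0 called by edgeR and 17 by DESeq2, no member among them. Lyve1 had the largest value, a Log2FC of -0.74 (SE 0.35, 95% interval -1.49 to 0.01, limma adjusted p = 0.596). Vehicle mice lay at 360.2, 487 and 769.9 normalized counts and RvE1 mice at 134, 207 and 877. Of the RvE1 mice, 4 were below every vehicle mouse and 1 was above every vehicle mouse. The highest values of both groups came from mice with identifier number 23, which is the number that KO obese and KO obese+RvE1 share (769.9 in the vehicle mouse, and 877 and 527 in the RvE1 mice). Kdr was at 0.21, with 4 RvE1 mice above all vehicle mice, and Fcgr2b at 0.23, with 3 above. Clec4g again fell into separate ranges among RvE1 mice, 3 at 422 to 551 and 4 at 951 to 1158 (Log2FC = 0.04). No member's RvE1 effect differed between genotypes at the threshold (0 of 10, and 0 of 13059 genes by limma, edgeR and DESeq2, with 311 genes (2.38%) at an unadjusted p-value below 0.05).

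**Figure D4:**
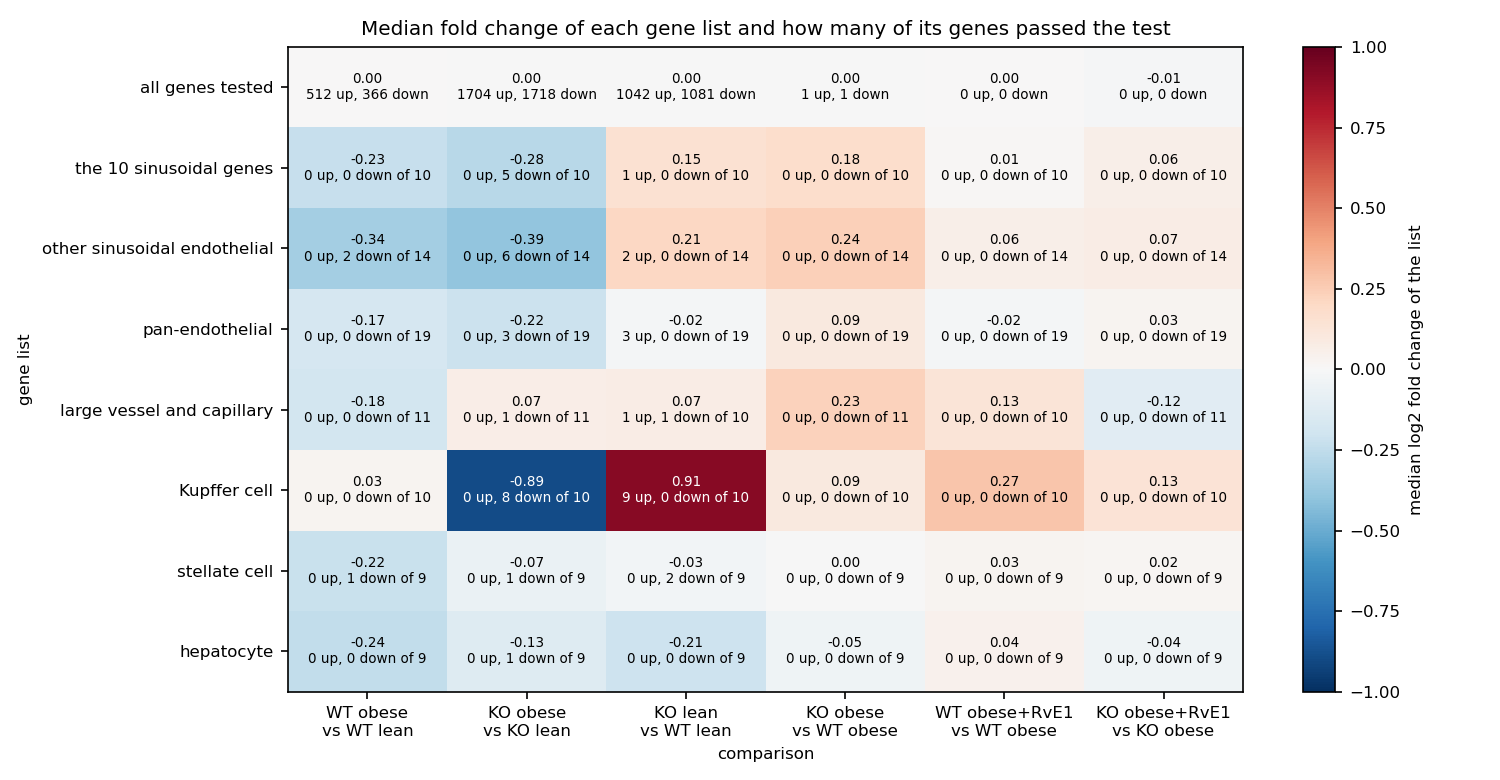
Median Log2FC (colour and upper number) of the 10 genes, 3 further endothelial lists, 3 lists of other liver cells and all genes tested (rows) in the 6 comparisons (columns), with how many genes were called higher and lower below it. The 10 genes and the further sinusoidal genes lie below 0 in both diet comparisons, and so do the pan-endothelial, stellate cell and hepatocyte lists. Among the lists drawn the Kupffer cell list has the largest medians, -0.89 in the KO diet comparison and 0.91 among lean mice.

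How the 10 genes varied together was described within groups, after the mean of each group was subtracted from TMM-scaled log2 read counts of the 42 libraries. Across these libraries 42 of the 45 pairs of genes had a Pearson r above 0, with a median of 0.50 and a range from -0.23 to 0.91. Pairs share library, depth and the amount of endothelium in the sample, and with equal read totals the median r was 0.66. The junction genes Pecam1 and Cdh5 were most alike (r = 0.91). The stabilin genes formed a second pair (Stab1 and Stab2, r = 0.85) and the lectin and the Fc receptor a further one (Clec4g and Fcgr2b, r = 0.80). Oit3 went with Cdh5 (0.81) and Eng (0.77).

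The pairs were not all linked to each other. Clec4g and Stab2 gave r = 0.002 and Clec4g and Stab1 gave 0.11. Lyve1 went with Pecam1 (0.67) and Cdh5 (0.63) and had r = -0.23 with Fcgr2b, r = -0.13 with Stab2 and r = -0.10 with Clec4g. Clec4g and Fcgr2b, the pair that differed most by diet in KO mice, thus varied together between mice of 1 group as well. The r of each gene with the mean of the other 9 was highest for Cdh5 (0.89) and Oit3 (0.87) and lowest for Lyve1 (0.27) and Clec4g (0.35).

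**Figure D5:**
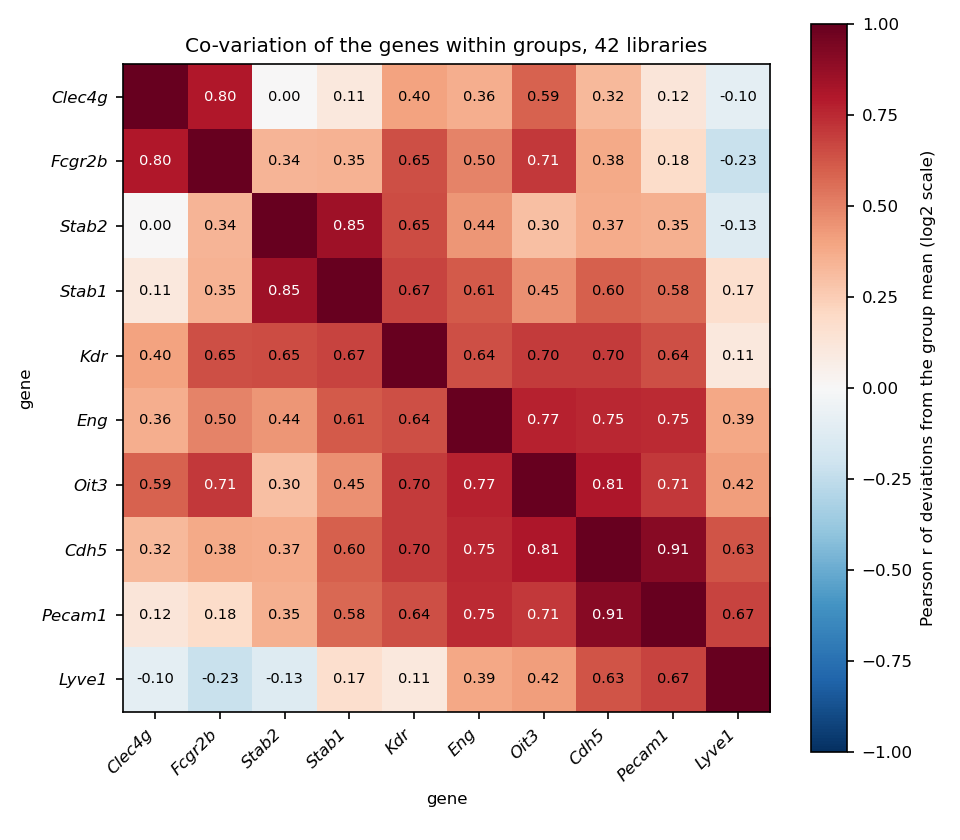
Pearson r (colour, printed in each cell) between the deviations of the 10 genes from their group means over 42 libraries, with genes on both axes. Pecam1 with Cdh5 (0.91), Stab1 with Stab2 (0.85) and Clec4g with Fcgr2b (0.80) are named in the text, and Lyve1 with Fcgr2b is the lowest (-0.23).

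The mean of the 10 deviations followed the other endothelial lists. Its r was 0.94 with the mean of 19 pan-endothelial genes, 0.91 with 14 further sinusoidal genes and 0.75 with 10 genes of larger vessels and other capillaries. It was 0.53 with Kupffer cell markers, 0.51 with stellate cell markers and -0.12 with hepatocyte markers. The 5 genes outside the set that followed it most closely were Ptprb, the VE-PTP phosphatase of endothelium (r = 0.92), Dnase1l3 (0.87), Pde2a, a phosphodiesterase (0.86), Tie1, an endothelial receptor kinase (0.85), and Flt4, a VEGF receptor (0.84). Genes outside the endothelial lists with the closest values included Pde2a, Amotl1 (0.82), B3gnt3 (0.82) and 4632428N05Rik (0.82). Over 13046 other genes the median r was -0.03 and 0.475% were above 0.7. Stab2 and Stab1 stood apart in their r with hepatocyte markers, -0.73 and -0.50, beside 0.21 for Clec4g and 0.35 for Lyve1.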

How the data were processed

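Whole liver RNA of 42 mice was sequenced by the authors as TruSeq stranded libraries on a NovaSeq, aligned to UCSC mm10 with Bowtie2, which does not split reads over introns, and counted with featureCounts, both ends mapped. They normalized each comparison on its own with DESeq2. For versions, annotation and strand, the settings were not given in the sources used here. The deposited signal values are reads divided by a size factor, and 100% gave whole reads (tolerance 0.1). The deposited tables also hold the authors' fold changes and p-values, which were not used.

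The main test was limma 3.58.1 (R 4.3.3, trend, two-sided) on log2(normalized count + 1) for genes with a mean of at least 5, with BH adjustment over all of them. Genes passed at an adjusted p-value below 0.1 regardless of fold change, the level of the study's methods. A fold change on this scale understates that of low genes. EdgeR 4.0.16 and DESeq2 1.42.0 were run on the recovered reads. Genotype by diet and genotype by RvE1 effects were contrasts of Log2FC values, each formed within its own table. Libraries of a group were separate mice, and no pair agreed within sampling noise. On simulated KO diet data limma recovered 87% of genes changed by a log2 value of 1 (14187 genes). The simulated mice carried no effect of the identifier number. That change was also larger than any member's in this comparison (largest Log2FC = -0.73, Clec4g), so recovery at their sizes was not simulated. Groups came from sample titles. All members were named, and genes of other lists by smallest adjusted p-value, at most 4 per list and comparison. Of the called lymphocyte genes of the KO diet comparison, those besides Ms4a1 were named without values, and some genes that this rule names are not reported here. Smad1, Smad5 and Sox7 were named after their values with equal read totals were seen. The members and the 13 other lists were chosen with earlier results of these data known. Alternatives covered pseudocount, filter, scaling, length and GC, weights, the identifier number as a block and leaving out mice. Gene positions came from GENCODE M21, which matched 93.0% of names, and promoters from RefSeq. Intervals of depth cover counting error only.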

Additional observations from a re-analysis of the deposited data

Results flagged for a closer look

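The 10 genes were examined in each of the 6 groups, 60 sets of 7 mice. In 3 of them the highest or lowest mouse stood apart, with a gap to the next mouse above 0.568 of the whole range, and chance alone flags about 1 in 20 such sets. Lyve1 in KO obese liver was 764 normalized counts in mouse 23L, with the next mouse at 505. Kdr in KO obese liver was 275 in mouse 10RL, with the next mouse at 452. Eng in WT obese+RvE1 liver was 1697 in mouse 7R, with the next mouse at 1322. Without 23L the Log2FC of Lyve1 in the KO diet comparison was 0.21 (adjusted p = 0.363, limma), and without 10RL that of Kdr was -0.31 (adjusted p = 0.129, limma).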

How the results depend on the processing

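Counts of called members moved by over 1.5 times in the following cases. In the KO diet comparison 5 members became 3 with equal read totals (Clec4g and Fcgr2b lower, Lyve1 higher), 0 with a random block for the identifier number, 2 at an adjusted p-value below 0.05 and 2 with a fold change above 1.5 in addition. Leaving out single mice gave 2 to 5, and leaving out all mice of an identifier number, chosen after seeing the data, gave 0 to 6. Among lean mice 1 member became 0 with equal read totals, 0 with the block, 4 with library quality weights and 2 by DESeq2, and ranged from 0 to 3 without single mice and from 0 to 2 without an identifier number. In the WT diet comparison 0 members became 1 with length and GC correction and 1 by DESeq2, and ranged from 0 to 2 without single mice and from 0 to 1 without an identifier number. The contrast of diet effects gave 1 (Fcgr2b) with quality weights. Called members could also change without such a move in their count. In the KO diet comparison length and GC correction replaced Eng by Stab1, and quality weights added Stab1. Pseudocounts of 0.5 and 4, no filter, TMM scaling and edgeR changed no count of members. In obese mice, with RvE1 and in the RvE1 contrast every alternative and omission gave 0 members. The cause of these changes was not tested.

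Signs turned only in values close to 0 or with wide intervals, none of them called. With length and GC correction Stab1 was at 0.0086 in the WT diet, Pecam1 at -0.0305 in the KO diet, Clec4g at -0.0094 and Eng at -0.0299 in the KO RvE1 comparison, Kdr at -0.094 in the diet contrast and Eng at -0.039 in the RvE1 contrast. With quality weights Stab1 (0.032) and Stab2 (0.14) turned in the WT diet, Pecam1 (-0.042) among lean mice, Clec4g (-0.13) among obese mice, Oit3 with RvE1 in WT (0.0054) and KO mice (-0.037), Kdr (-0.16) in the diet contrast, and Stab2 (-0.079), Oit3 (-0.061) and Eng (-0.027) in the RvE1 contrast. With equal read totals, which shifted the median of all genes among lean mice to -0.12, Stab1 (-0.0603), Kdr (-0.093) and Pecam1 (-0.12) turned there, as did Cdh5 (0.045) with RvE1 in KO mice and Eng (0.0013) in the diet contrast. With the block Cdh5 was at -0.028 with RvE1 in WT mice, and Clec4g at -0.061 and Eng at -0.011 in the RvE1 contrast, and edgeR put Cdh5 at 0.0082 with RvE1 in KO mice.

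Without single mice these Log2FC values crossed 0. In the WT diet Stab1 ranged from -0.17 to 0.019, Stab2 from -0.18 to 0.074 and Lyve1 from -0.32 to 0.0704. In the KO diet Pecam1 ranged from -0.069 to 0.16. Among lean mice Stab1 ranged from -0.0060 to 0.14, Kdr from -0.045 to 0.0897 and Pecam1 from -0.11 to 0.12, and among obese mice Eng from -0.0012 to 0.11. With RvE1 in WT mice Stab2 ranged from -0.085 to 0.17, Clec4g from -0.11 to 0.035, Kdr from -0.28 to 0.024, Cdh5 from -0.10 to 0.16, Oit3 from -0.16 to 0.088 and Eng from -0.0296 to 0.089. With RvE1 in KO mice Clec4g ranged from -0.094 to 0.17, Cdh5 from -0.14 to 0.11 and Oit3 from -0.056 to 0.18. In the diet contrast Stab2 ranged from -0.23 to 0.026, and in the RvE1 contrast Clec4g from -0.068 to 0.19, Cdh5 from -0.19 to 0.067, Oit3 from -0.047 to 0.21 and Eng from -0.024 to 0.10.

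Over all genes the KO diet calls of 3422 became 1057 with the block and 5737 with weights, the lean genotype calls of 2123 became 3 and 4297, and the WT diet calls of 878 became 279 and 1605, with 1367 by DESeq2 and 510 with equal read totals. The obese genotype calls of 2 became 1 with equal read totals and 0 with the block, and the diet contrast with 1 call gave 926 by DESeq2, 2563 with weights and 0 with a pseudocount of 4, equal read totals, length and GC correction or the block. Without an identifier number the lean genotype calls ranged from 8 to 2970 and the KO diet calls from 832 to 4199. At these depths each member had at least 91 reads in every library.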

Other observations

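Cell type lists that touched no member were small or uncalled. Of the adipocyte markers only Cfd (adipsin) was tested, and it was called higher in obese liver of both genotypes. With the block the call held in WT mice and was lost in KO mice (adjusted p = 0.101, limma). Cfd had 12.4 ± 6.6 normalized counts in WT lean and 280.3 ± 161 in WT obese liver. It had 30.2 ± 28.8 in KO lean and 491 ± 646 in KO obese liver (SD, n = 7 each), and these KO groups overlapped. Of 5 cholangiocyte markers 0 were called in either diet comparison, with median Log2FC values of -0.18 in WT and 0.27 in KO mice. The erythroid list held 1 tested gene, Alas2, which was not called in any comparison (limma).

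The mean deviation of the 10 genes from their group means placed single mice apart on the log2 scale. It was lowest in mouse 15R of the KO obese+RvE1 group (-0.67) and mouse 10RL of the KO obese group (-0.48). Mouse 7R of the WT obese+RvE1 group (0.64) and mouse 23L of the KO obese group (0.37) were highest.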
